A study of Sus scrofa domesticus with 150 samples.

Results

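The comparison of wound edge with wound center on day 6 used 12 of the 150 samples of a porcine wound healing series, chosen by their labelled day and location and not by any measured value. They are 6 edge and 6 center biopsies, one of each from the same 6 wounds. The wounds were full-thickness circular excisions of 2 cm on the backs of 3 female Yorkshire-mix pigs, animals 1326, 1327 and 1328, and received dressings and no test treatment. Each animal gave a wound B and a wound K, numbered here as wounds 1 and 2 (animal 1326), 3 and 4 (animal 1327) and 5 and 6 (animal 1328). Wounds of one animal share that animal, so the 6 wounds stand for 3 animals, and the animals' age is not given in the sources used here. Poly-A RNA was read as gene counts, with 14252564 to 18380786 counts per day 6 sample. Skin excised on day 0 from 6 animals, 3 of them the same, serves below as the reference level of unwounded skin. The day 0 samples were the whole excised tissue and not 3.5 mm biopsies, and levels were not tested against them.

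By the end of the first week an excisional wound is usually partly covered by a tongue of keratinocytes that migrates inward from the surrounding skin, while the bed fills with granulation tissue, a matrix of fibroblasts, new capillaries and immune cells. Basal keratinocytes express keratins 5 and 15 and attach to the basement membrane through integrins, and as they move upward they switch to keratins 1 and 10 and build the cornified envelope and its lipids. Granulation tissue fibroblasts make fibronectin and collagens and become contractile under TGF-β and activin signalling. These biopsies are mixtures, and in bulk RNA fewer cells of a type and less RNA per cell cannot be told apart.

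Summed over the 17 basal keratinocyte markers found, edge samples ranged from 14763 to 36232 CPM (counts scaled to the same total in every library). They lay within or above the 15713 to 25270 CPM of day 0 skin, except for the lowest edge sample, from wound 6. KRT14 could not be matched to the gene table and is not in the sum. Center samples ranged from 646 to 1227 CPM, and KRT5, the defining keratin of these cells, was at 10.6 to 157 CPM there. The center sample of wound 5 held 9.79% of its counts in skeletal muscle genes, against 0.0276% to 0.0804% in the other 11 samples. Muscle genes are therefore given apart.

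Of 14199 genes tested with edgeR's quasi-likelihood test, with the wound as a block and Benjamini-Hochberg adjustment, 1467 were higher at the edge (10.3% of those tested) and 640 were higher in the center (4.51%). The median log2 fold change of edge over center across all genes tested was -0.03, which is the value to hold beside each list median below. For 1116 genes (7.86%) all 6 edge samples lay above all 6 center samples, and for 205 genes (1.44%) the reverse held. Among the 2107 called genes, 1212 (57.5%) were separated in one of these ways. The edge was higher in 6 of 6 wounds for 1869 genes (13.2%), and the center for 1257 (8.85%). The center calls depended more on single wounds: they numbered 240 without wound 3, 253 without wound 2 and 419 without wound 6, while the edge calls stayed between 1125 and 1560 without any one wound. Adjusted p-values below come from this fit.

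**Figure D1:**
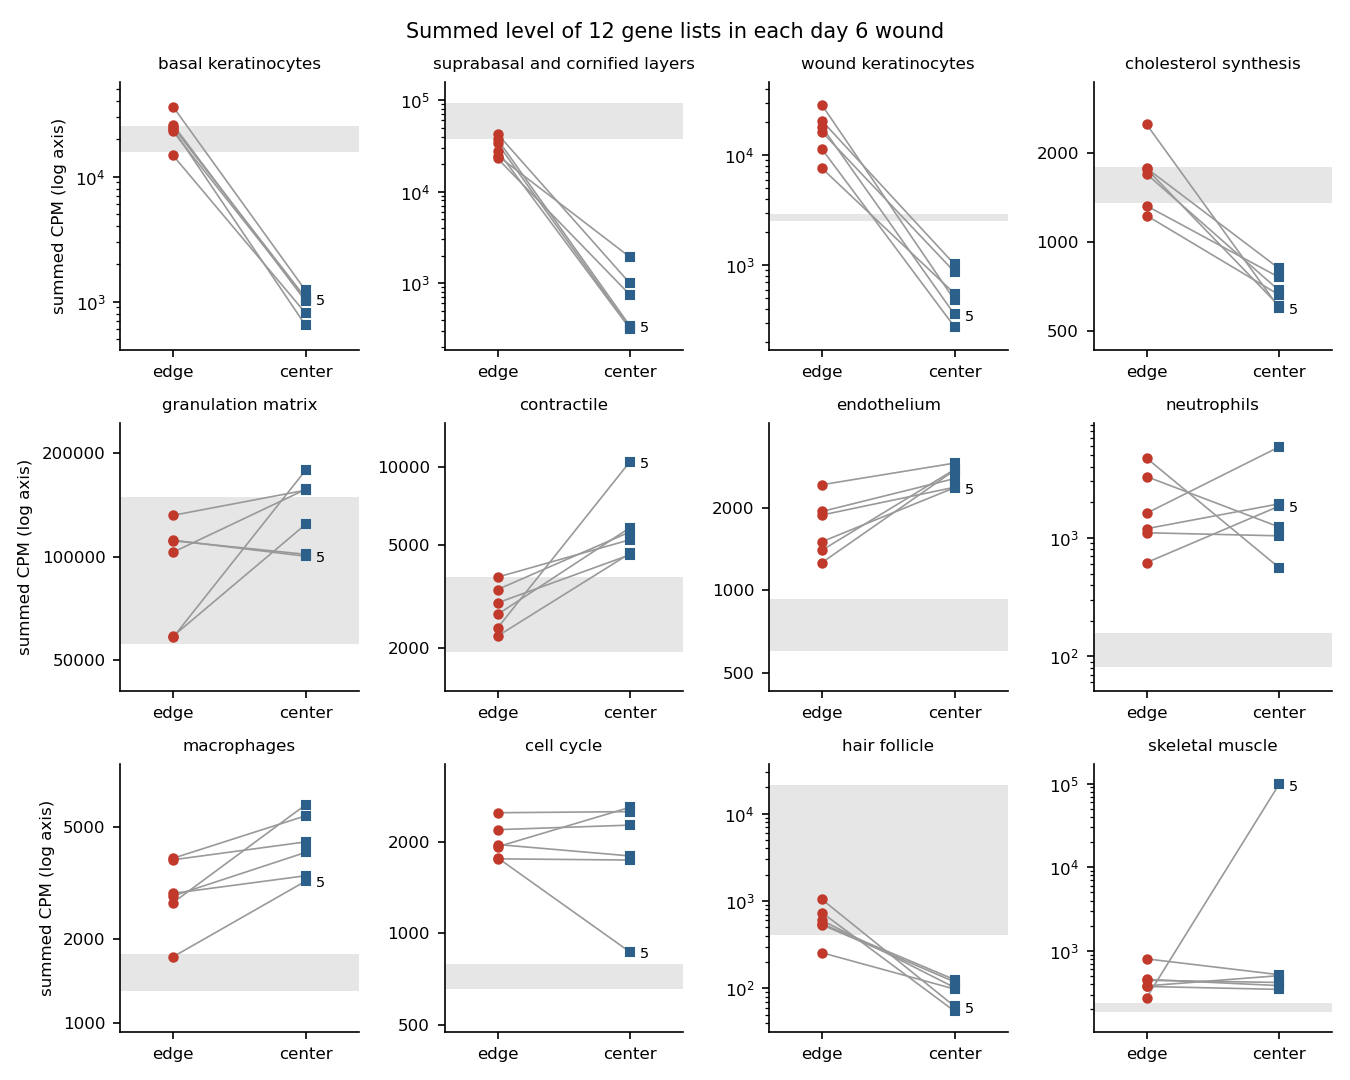
Summed CPM (vertical log axis) of 12 gene lists in each day 6 wound, with a line joining each wound's pair of samples. The basal and suprabasal keratinocyte sums fall from edge to center in every wound, while the endothelial and contractile sums rise from edge to center.

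The edge samples carried the RNA of a stratified epidermis. Of the 17 basal keratinocyte genes tested, 15 were higher at the edge and 0 in the center, with a median log2 fold change of 5.72. The exceptions were COL7A1, the anchoring fibril collagen, at 0.70 (adjusted p = 0.201), and DST, a plakin, at -0.15 (adjusted p = 0.714). Keratin 5 (KRT5, ENSSSCG00025059933), the keratin of the basal layer, lay at 5065 CPM in the lowest, 7303 in the median and 9875 in the highest edge sample, and at 10.6, 47.0 and 157 CPM in the center. The edge samples all lay above the center samples and overlapped day 0 skin, which ranged from 5966 to 10627 CPM. KRT5 was higher at the edge by 7.40 ± 0.65 on the log2 scale (SE, n = 6 wounds; edgeR adjusted p = 8.57e-05). Keratin 15 (KRT15) reached 6155, 10445 and 18263 CPM at the edge and 27.1, 103 and 318 in the center. Its edge median was above the 5671 CPM of day 0 skin. TP63, the transcription factor that maintains the basal layer, and COL17A1, a hemidesmosomal collagen, were higher at the edge by 6.59 and 7.47 on the log2 scale. P-cadherin (CDH3) was higher by 5.92 ± 0.40 (adjusted p = 2.46e-05).

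The suprabasal and cornified envelope genes were higher at the edge in 31 of 32 tested members, with a median log2 fold change of 6.76 and 0 higher in the center. The exception was TGM3, another transglutaminase of the envelope, at 1.66 (adjusted p = 0.141). Loricrin (LOR), FLG and HRNR could not be matched to the gene table. Keratin 10 (KRT10, ENSSSCG00025042112), made once keratinocytes leave the basal layer, had 5773, 8117 and 12904 CPM at the edge (lowest, median, highest) and 21.0, 51.6 and 240 CPM in the center. The edge samples all exceeded the center samples, and the edge median was below the day 0 median of 18069 CPM. On the log2 scale the fold change of KRT10 was 7.11 ± 0.53 (adjusted p = 3.55e-05). KRT1, the partner of keratin 10, had an edge median of 6909.5 CPM and a center median of 43.5 CPM. TGM5, a transglutaminase that cross-links the cornified envelope, was higher by 4.72 ± 0.18 (adjusted p = 8.95e-06). KLK7, a protease that acts in shedding of the horny layer, was higher by 6.99 ± 0.38. Per unit of transcript length, the deposited FPKM values put KRT6C first among these keratins at the edge with a median of 5582 FPKM, ahead of KRT10 at 3589 and KRT5 at 2289.

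Keratinocyte genes that wounding is known to induce summed to 7598 to 28552 CPM at the edge and 275 to 1017 CPM in the center, on either side of the 2522 to 2926 CPM of day 0 skin. Only part of this list could be matched to the gene table, and keratins 16 and 17 were not among the genes matched. Of the 10 genes tested, 9 were higher at the edge, all but LCN2 at -0.42 (adjusted p = 0.235), with a median of 4.12 on the log2 scale, and all but SERPINB2 were called without each wound in turn. KRT6C (ENSSSCG00025066379), a keratin of activated epidermis, had 5313, 12943 and 21929 CPM at the edge and 26.5, 93.0 and 229 CPM in the center. Every edge sample exceeded the highest day 0 sample, at 995 CPM, whereas every center sample was below the lowest, at 478 CPM. Its log2 fold change was 7.10 ± 0.59 (adjusted p = 6.23e-05). S100A9, a calcium-binding protein shared by activated keratinocytes and neutrophils, had 88.0, 638 and 964 CPM at the edge and 13.3, 42.3 and 228 CPM in the center. The groups overlapped, the edge was higher in 6 of 6 wounds, and day 0 skin had a median of 2.29 CPM. The fold change of S100A9 was 3.21 ± 0.42 on the log2 scale (adjusted p = 0.000935). The summed neutrophil list ran from 618 to 4730 CPM at the edge and from 561 to 5869 CPM in the center. It holds ligands such as CXCL8, CXCL2 and CSF3 beside neutrophil markers, so the sum is not a measure of neutrophils alone. The part of neutrophils in the S100A9 difference was not tested.

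Most genes of barrier lipid and cholesterol synthesis were higher at the edge. Of 20 barrier lipid genes, 16 were higher at the edge (median 5.38) and 0 in the center. ABCA12, which loads lipids into lamellar granules, had an edge range of 18.6 to 72.7 CPM and a center range of 0 to 0.339 CPM, and CERS3, a ceramide synthase, was higher by 7.44 on the log2 scale. Of 20 cholesterol synthesis genes, 14 were higher at the edge and 0 in the center, with a median of 0.86. HMGCS1, a synthase early in the pathway, had 173, 340.2 and 730.1 CPM at the edge and 60.4, 82.8 and 93.5 CPM in the center, and its groups did not overlap. Its fold change was 2.02 ± 0.31 on the log2 scale (adjusted p = 0.00219). DHCR7, a reductase late in the pathway, was higher by 2.65 ± 0.35. These calls were made with each wound left out in turn for 13 of the 14 cholesterol genes, all but HSD17B7, and for 15 of the 16 barrier genes, all but ELOVL1.

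**Figure D2:**
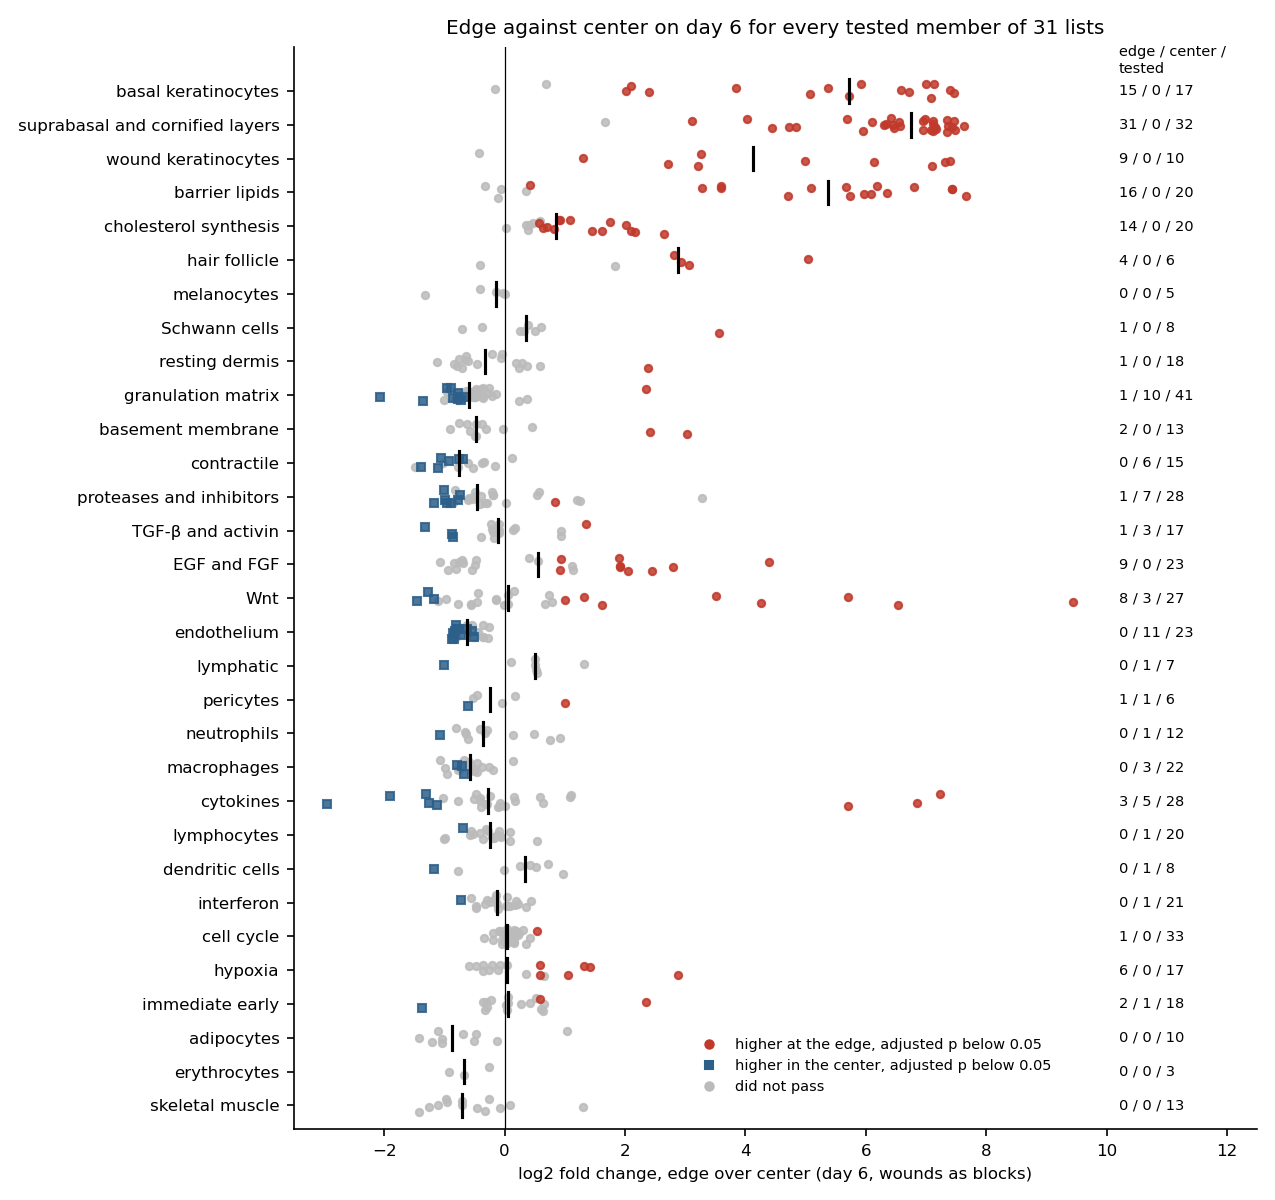
Each point is the log2 fold change (edge over center, day 6) of one tested gene, by list, with the numbers called higher at the edge, higher in the center and tested at the right. Keratinocyte and barrier lipid lists lie far to the right of 0, while the granulation matrix, contractile, endothelial and macrophage lists lie mostly left of 0 with smaller changes.

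Most calls among growth factor genes lay at the edge. Of 23 genes of this list, 9 were higher at the edge and 0 in the center by edgeR with the wound as a block, with a median of 0.56, while DESeq2 called 11 and 5. PDGFRA and PDGFB, a receptor and a ligand of platelet-derived growth factor signalling, were just short of the threshold on the center side, at -0.76 ± 0.22 (adjusted p = 0.0507) and -0.70 ± 0.21 (adjusted p = 0.0549). FGFR3 (ENSSSCG00025055959), a receptor enriched in keratinocytes, had 183, 293 and 381 CPM at the edge and 4.42, 16.1 and 20.0 CPM in the center, without overlap. Its fold change was 4.39 ± 0.30 on the log2 scale (adjusted p = 2.68e-05). MET, the receptor of hepatocyte growth factor, was higher by 2.44 ± 0.19, EGFR by 2.05 ± 0.23 and ERBB2 by 1.90. Of the ligands, TGFA, which binds EGFR, was higher by 2.80 ± 0.57 and NRG1, a neuregulin, by 1.91 ± 0.41. NRG1 had 12.9, 22.8 and 46.6 CPM at the edge and 2.38, 6.98 and 18.9 CPM in the center, with overlap, and its edge samples all exceeded the highest day 0 sample at 5.65 CPM. TGFA, EGFR, ERBB2, FGFR2, FGFR3 and MET were called without each wound in turn, and the other 3 of the 9 were not, with adjusted p-values of up to 0.104. Without wound 2 or wound 3 the count at the edge was 6, and without wound 5 there were 4 calls in the center against 0 with it. The center count was also 4 when the wounds of an animal were summed and 2 without pairing.

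Wnt pathway members divided between the locations. Of 27 tested, 8 were higher at the edge and 3 in the center. The ligands WNT3, WNT3A, WNT7B and WNT10A, which act through β-catenin, were on the edge side. WNT3A (ENSSSCG00025068757) had 3.78, 5.17 and 6.65 CPM at the edge and was at 0 in all 6 center samples, 517 counts against 0, which is at least 178-fold higher when 3 counts over the group are taken as the floor. WNT3 had 23.95 to 60.8 CPM at the edge and 0.118 to 1.31 CPM in the center, with a fold change of 5.71 ± 0.34 on the log2 scale. WNT5A (ENSSSCG00025068000), a ligand that mostly signals without β-catenin, went the other way, with 61.0, 191 and 345 CPM at the edge and 237, 493 and 661 CPM in the center. Its groups overlapped, but the center was higher in 6 of 6 wounds, and its day 0 median was 25.2 CPM. The log2 fold change of WNT5A was -1.45 ± 0.22 (adjusted p = 0.00196). The secreted modulators SFRP1 and DKK3 were also higher in the center, at -1.28 and -1.18 on the log2 scale. All 3 center calls and 7 of the 8 edge calls were made without each wound in turn, with AXIN2, a β-catenin target, as the exception.

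Within the TGF-β, activin and BMP list, 3 genes were higher in the center and 1 at the edge among 17 tested (median -0.10). INHBA, the subunit of activin A, had 26.5, 91.1 and 151 CPM at the edge and 102, 220 and 264 CPM in the center, which overlapped. Day 0 skin had a median of 3.58 CPM. The log2 fold change was -1.32 ± 0.26 (adjusted p = 0.0100, and 0.0538 when the wounds were not paired). TGFB2 was higher in the center by a log2 fold change of -0.86 ± 0.14, as was FSTL3, a binding protein of activin, whose call was lost without pairing (adjusted p = 0.124). TGFB1 and TGFB3 did not pass the test, at -0.17 (adjusted p = 0.499) and -0.10 (adjusted p = 0.810). BMP2 was the gene higher at the edge, by 1.36 ± 0.25, and without wound 5 there were 3 edge calls.

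Most calls among the matrix genes of granulation tissue lay in the center. Of 41 tested, 10 were higher in the center and 1 at the edge, with a median log2 fold change of -0.59. Fibronectin (FN1, ENSSSCG00025023944), the first scaffold of granulation tissue, had 793, 1467 and 2505 CPM at the edge and 2611, 3376 and 6750.3 CPM in the center. The center samples all lay above the edge samples, and both locations lay above day 0 skin, whose median was 445 CPM. For FN1 the log2 fold change was -1.35 ± 0.23 (adjusted p = 0.00421). P4HA3, a collagen prolyl hydroxylase, and BMP1, which cleaves procollagen, were higher in the center at -0.89 ± 0.14 and -0.78 ± 0.15. The others were the collagen cross-linking oxidases LOXL1, LOXL2 and LOXL3, the proteoglycans DCN and BGN, the collagen chaperone SERPINH1 and COL11A1, a minor fibrillar collagen. LOXL2 had 191, 349 and 468 CPM at the edge and 400.4, 496 and 844 CPM in the center, against a day 0 median of 39.6 CPM. The abundant fibrillar collagens did not pass: COL3A1 was at -0.77 ± 0.27 (adjusted p = 0.0933) and COL1A1 at -0.47 (adjusted p = 0.407). FN1, P4HA3 and BMP1 were called without each wound in turn. The other 7 were not, and the count in the center was 3 without wound 2, 3 without wound 3 and 5 without wound 1.

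Periostin (POSTN, ENSSSCG00025049827), a matricellular protein of the dermis near the epidermal junction, was the matrix gene higher at the edge. It had 335, 1016.5 and 2327 CPM at the edge and 39.6, 322 and 721 CPM in the center. The groups overlapped, the edge was higher in 6 of 6 wounds, and both were below the day 0 median of 3656 CPM. Its log2 fold change was 2.35 ± 0.44 (adjusted p = 0.00705, and 0.0700 without pairing). Among basement membrane collagens, COL4A5 and COL4A6, whose chains occur together under epithelia, were higher at the edge, COL4A6 by 3.03 ± 0.21, and 0 of 13 genes were higher in the center by edgeR with the wound as a block. COL4A1 and COL4A2, the chains found under most endothelium and epithelium, were at -0.76 ± 0.25 (adjusted p = 0.0756) and -0.91 ± 0.33 (adjusted p = 0.109). Center calls in this list numbered 2 without pairing, 4 by DESeq2 and 5 in the fit of days 4, 6 and 9 together, and the list's median was -0.47.

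Contractile genes were higher in the center in 6 of 15 cases and at the edge in 0 (median -0.76). Transgelin (TAGLN, ENSSSCG00025007163), an actin-binding protein of smooth muscle and myofibroblasts, had 203, 348 and 531 CPM at the edge and 572, 721 and 996 CPM in the center, without overlap. The log2 fold change was -1.06 ± 0.18 (adjusted p = 0.00465). Smooth muscle actin (ACTA2), the usual marker of myofibroblasts, was at -0.76. TPM1, a tropomyosin that skeletal muscle also makes, was at -1.38 with all wounds and at -1.002 without wound 5, whose center sample carried the muscle RNA. Without wound 2 or wound 3 the list had 2 calls in place of 6, and TAGLN and TGFB1I1 were the pair called whichever wound was left out.

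Proteases, their inhibitors and their receptors gave 7 genes higher in the center and 1 at the edge of 28 tested (median -0.45). TIMP1, the inhibitor of matrix metalloproteinases, had 108, 393 and 536 CPM at the edge and 229.5, 673 and 1318 CPM in the center, with overlap and the center higher in 6 of 6 wounds. Its log2 fold change was -1.01 ± 0.16 (adjusted p = 0.00273, and 0.126 without pairing). PLAUR, the urokinase receptor, was at -0.90 and likewise lost its call without pairing (adjusted p = 0.134). MMP28, an epidermal metalloproteinase, was the gene called on the edge side, at 0.83 ± 0.18, and its adjusted p rose to at most 0.0618 with a wound left out. Positive fold changes numbered 7 of 28, the largest of them 3.27 in a gene that did not pass. Edge calls numbered 3 without wound 4 and 5 by DESeq2. The center count was 3 without wound 3, 4 without wound 2, 3 without pairing and 2 with the animal in place of the wound as the block. It was 9 without wound 4 and 12 in the fit of days 4, 6 and 9 together.

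**Figure D3:**
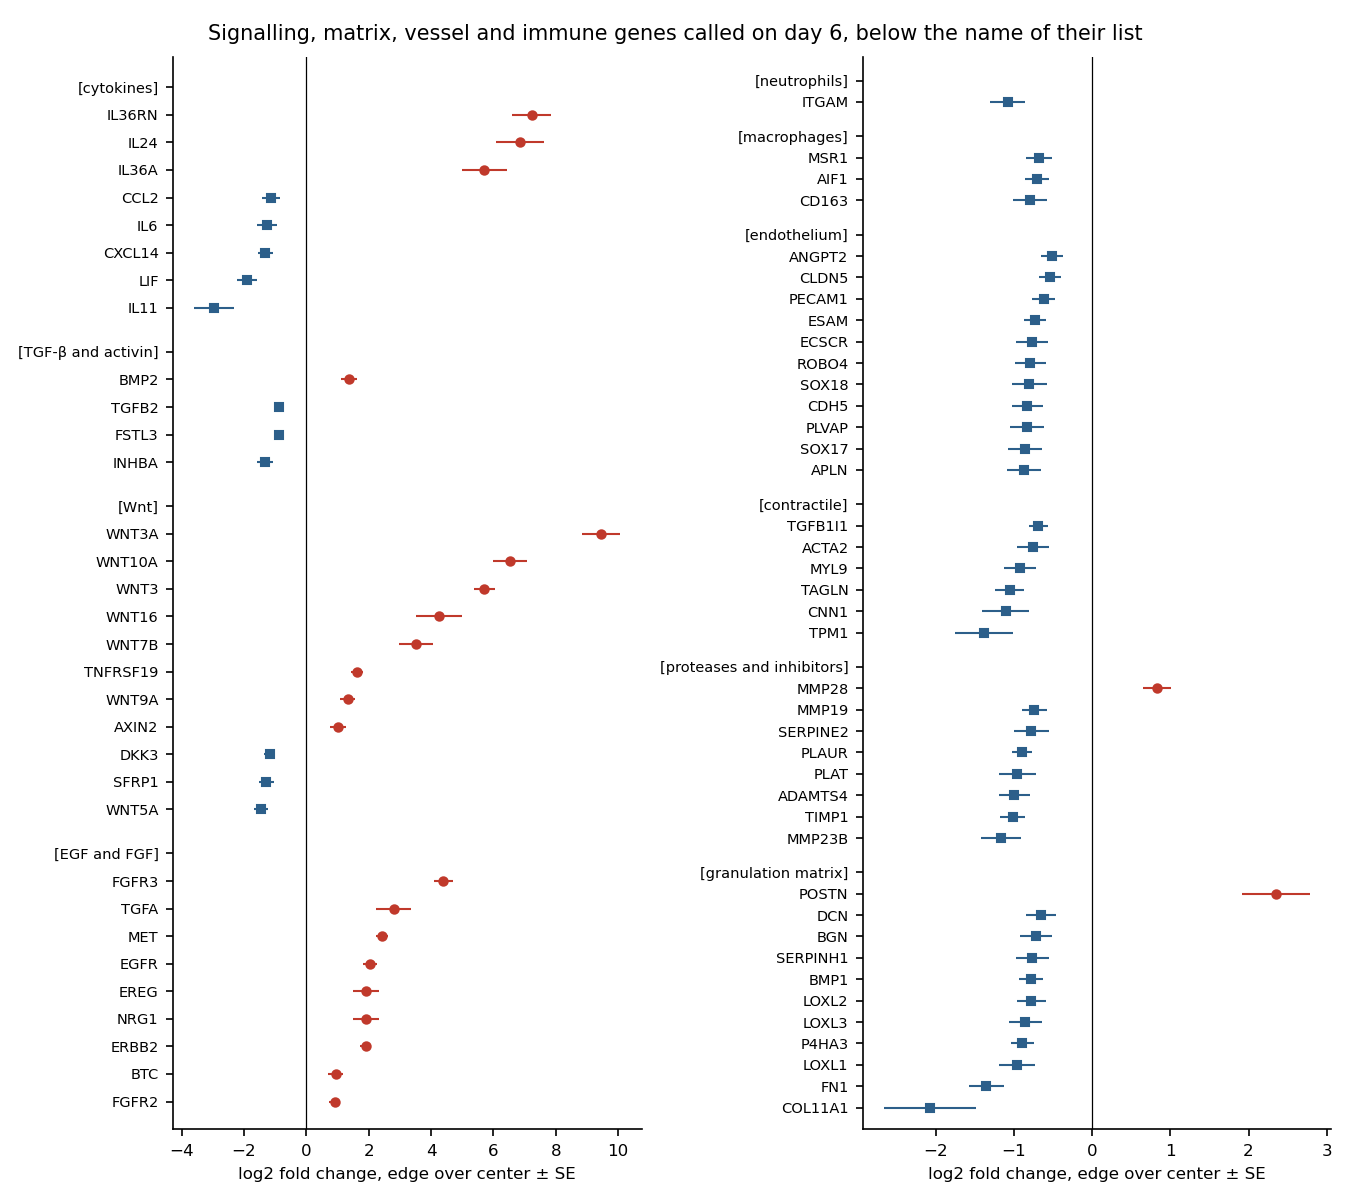
Log2 fold change of edge over center with its SE for the signalling, matrix, vessel and immune genes called on day 6, under the name of their list. EGF and FGF receptors and the Wnt ligands other than WNT5A lie right of 0. Contractile and endothelial genes lie left of 0, as do the matrix genes other than POSTN and the cytokines other than IL36A, IL36RN and IL24. WNT3A had no center counts, so the place of its point depends on the model's prior count.

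Calls among endothelial genes lay in the center. Of 23 endothelial genes, 11 were higher in the center and 0 at the edge, with a median of -0.62, and the summed list ran from 1261 to 2426 CPM at the edge and from 2366 to 2909 CPM in the center. Both locations lay above the 601 to 926 CPM of day 0 skin. ESAM (ENSSSCG00025007159), an adhesion molecule of endothelial junctions, had 21.7, 34.4 and 45.0 CPM at the edge and 46.1, 53.1 and 63.4 CPM in the center, without overlap. Its log2 fold change was -0.73 ± 0.14 (adjusted p = 0.00939). PECAM1 and CDH5, other junction proteins, were at -0.62 and -0.83. Among the 11 were also APLN, a ligand of sprouting endothelium, at -0.87 ± 0.21, with 9.67, 30.6 and 42.9 CPM at the edge and 25.1, 53.2 and 76.0 CPM in the center, and the transcription factor SOX17 at -0.86 ± 0.22, whose center samples all exceeded the edge samples. VWF and KDR did not pass, at -0.48 (adjusted p = 0.436) and -0.55 (adjusted p = 0.0602). The count depended on single wounds: 1 gene, ESAM, was called without wound 2 or without wound 3, 5 without wound 6 and 6 without wound 1. It was 7 without pairing. Of 7 lymphatic genes 6 had positive fold changes (median 0.51). The summed level of the list was higher at the edge in 6 of 6 wounds, from 266.5 to 359.4 CPM there and from 163 to 297 CPM in the center. By FPKM the sum was higher at the edge in 5 of 6 wounds. PDPN, among the 2 most abundant members, is also made by keratinocytes and fibroblasts. None of the 6 genes with positive fold changes was called, while DESeq2 and edgeR without wound 4 each called 1 lymphatic gene higher at the edge. The called member was LYVE1, a hyaluronan receptor of lymphatic vessels and some macrophages, which was higher in the center, with 11.2 to 26.1 CPM at the edge, 26.3 to 54.1 CPM in the center and a log2 fold change of -1.002 ± 0.20 (adjusted p = 0.0109). Of 6 pericyte genes tested, 1 was higher at the edge and 1 in the center, with 2 positive fold changes and a median of -0.25. NOTCH3, a receptor of mural cells that keratinocytes also express, was the edge call, at 1.01 ± 0.15 (adjusted p = 0.00200). It had non-overlapping ranges of 204 to 335 CPM at the edge and 100 to 202 CPM in the center. MCAM, an adhesion molecule of pericytes and endothelium, was higher in the center at -0.61 ± 0.14, a call lost when some single wound was left out (adjusted p up to 0.0782).

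Few immune markers passed the test. Of 12 neutrophil genes 1, ITGAM, was higher in the center at -1.08 on the log2 scale, and of 22 macrophage genes 3 were, namely CD163, AIF1 and MSR1, with a median of -0.58 and 0 at the edge. Each of the 3 macrophage calls was lost when some single wound was left out, with adjusted p-values of up to 0.0960, and the count was 1 without wound 1, 5 or 6. DESeq2 called 9. The lymphocyte, dendritic and interferon lists had 1 call each, all in the center, of 20, 8 and 21 genes tested: NKG7, CCR7 (adjusted p = 0.261 without pairing) and MX2. NKG7 was lost when some single wound was left out. Apart from CCR7 the dendritic list leaned the other way, with 5 of 8 fold changes positive and a median of 0.34. That list also holds the mast cell genes FCER1A, HDC and MS4A2, so its lean is not one of dendritic cell genes alone. The interferon list had 1 call at the edge and 2 in the center without wound 5.

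Cytokine genes were called on both sides. The edge calls, 3 of 28 tested, were near the 10.3% of all genes tested that were called there, while 4.51% of all genes were called in the center. The IL-36 family members IL36A and IL36RN, which epithelia make, and IL24, an IL-10 family cytokine, were higher at the edge. IL36RN had 9.17 to 37.6 CPM at the edge and 0 to 0.933 CPM in the center, and IL24 had 435 counts at the edge against 3 in the center, a ratio of 150 with a 95% exact counting interval of 50.9 to 729. In the center, 5 of 28 genes were higher, among them the gp130 cytokines IL11 and LIF. IL11 (ENSSSCG00025056346) had 1.48, 69.9 and 181 CPM at the edge and 137, 371 and 544 CPM in the center, against a day 0 median of 0.307 CPM. One edge sample, of wound 2, lay above the lowest center sample, of wound 5, and the center was higher in 6 of 6 wounds. The log2 fold change of IL11 was -2.96 ± 0.63 (adjusted p = 0.0134, and 0.0512 without pairing). LIF was at -1.90 ± 0.32 (adjusted p = 0.00394, and 0.239 without pairing), and CXCL14, a chemokine, at -1.31 ± 0.23 (adjusted p = 0.00554, and 0.0708 without pairing). IL6 and CCL2, at -1.25 and -1.12, made up the 5. Without pairing none of the 5 passed, and none did with the animal as the block. IL1B, the inflammatory cytokine, spanned 2.35 to 166 CPM at the edge and 6.08 to 272 CPM in the center and did not pass (log2 fold change -0.78 ± 0.75, adjusted p = 0.552), nor did the neutrophil attractant CXCL8 (0.49, adjusted p = 0.787).

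The cell cycle list had a median of 0.05 on the log2 scale, which turned to -0.10 without wound 5. Of its 33 genes 1, TYMS, which makes thymidylate, was higher at the edge by 0.55, and 0 were higher in the center, and TYMS lost its call without wound 3, without wound 6 and without pairing. MKI67 was at 0.36 (adjusted p = 0.265) and TOP2A at 0.00 (adjusted p = 0.997). Of 17 hypoxia genes 6 were higher at the edge, among them EGLN3, an oxygen-sensing hydroxylase, at 2.88 ± 0.39 and NDRG1 at 1.42 ± 0.17, while the list's median was 0.04. The count was 3 without wound 2, 3 or 6, and 3 when the wounds of an animal were summed. In the center 0 were called, and 1 without wound 5. GAPDH, a glycolytic gene of this list, did not pass (log2 fold change -0.36, adjusted p = 0.691), and its highest value was in the center of wound 5. KLF4 (ENSSSCG00025005446), a factor of keratinocyte differentiation counted here among immediate early genes, had 116, 174 and 281 CPM at the edge and 21.7, 36.8 and 53.4 CPM in the center, without overlap. Its fold change was 2.35 ± 0.27 on the log2 scale (adjusted p = 0.000386). In that list of 18 genes KLF6 was also higher at the edge, at 0.58 ± 0.15, and NR4A1, a nuclear receptor, was higher in the center, at -1.38 ± 0.37. Both calls were lost when some single wound was left out, with adjusted p-values of up to 0.116 and 0.0848.

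Called genes with a symbol were ranked by fold change where the log2 fold change was at least 1, the direction was the same in 6 of 6 wounds and the mean level was at least 5 CPM in the higher location. Ranking by fold change with a minimum level only in the higher location tends to pick genes with little RNA in the lower one. Among the 825 such genes higher at the edge, the 12 with the largest fold changes had little RNA in the center. In 11 of them no center sample exceeded 0.339 CPM, and the exception was one of the entries matched to FLG2, a filaggrin relative, with up to 1.24 CPM. KRT78, a keratin of stratified epithelia, had 1255 edge counts against 3 in the center, a ratio of 432 with a counting interval of 147 to 2097. FAAH, which degrades fatty acid amides, had 526 counts against 1, and TMPRSS11A, an epithelial serine protease, 729 against 2. FOXN1, a transcription factor of skin and hair, had 7.56 to 16.8 CPM at the edge and 0 to 0.113 CPM in the center. PRLR, the prolactin receptor, had 13.6 to 62.4 CPM at the edge and at most 0.123 CPM in the center.

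On the center side 122 genes met those criteria, and of the 12 with the largest changes IL11 and LIF belonged to a list described above. EDN3 (ENSSSCG00025053744), an endothelin, had 0.272, 1.299 and 3.44 CPM at the edge and 3.86, 6.73 and 12.6 CPM in the center, without overlap, at -2.52 ± 0.38 (adjusted p = 0.00205). ECE2, a converting enzyme of endothelins, was at -1.82 ± 0.25 (adjusted p = 0.00135). MSC, a basic helix-loop-helix factor, had 3.96, 15.8 and 27.7 CPM at the edge and 23.0, 48.6 and 69.1 CPM in the center. Its groups overlapped slightly, and its log2 fold change was -1.73 ± 0.22 (adjusted p = 0.000724). The homeobox and paired box genes SIX2, GSC and PAX1 were at -2.06 ± 0.47, -1.94 ± 0.48 and -1.88 ± 0.33. SIX2 lost its call without wound 1, 2 or 3 (adjusted p up to 0.0626) and GSC without wound 1, 2, 3 or 5 (adjusted p up to 0.0939). DRD1, a dopamine receptor, had 0.537 to 10.03 CPM at the edge and 5.96 to 27.4 CPM in the center, at -2.06 ± 0.32.

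**Figure D4:**
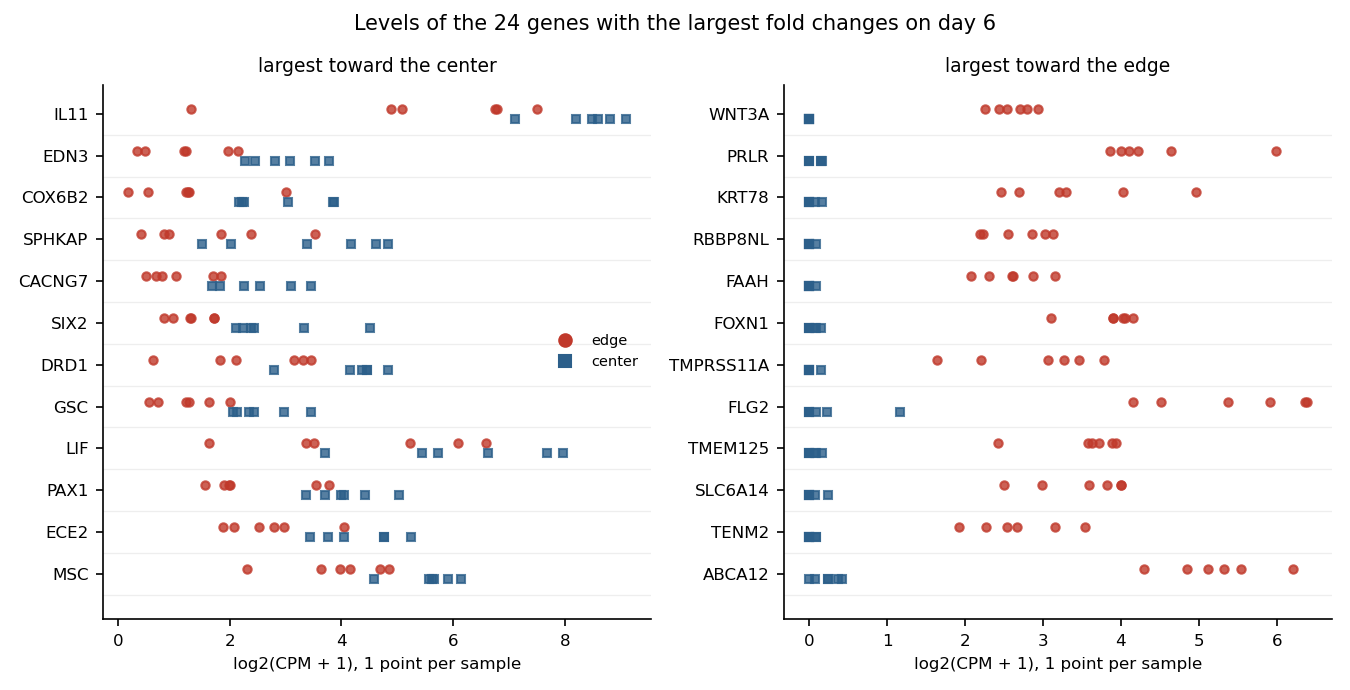
Levels as log2(CPM + 1), one point per sample, of the 12 genes with the largest fold changes toward the center (left) and the 12 toward the edge (right). On the right the center samples lie close to 0, while on the left most genes are detected at both locations and many overlap. Ranking by fold change tends to pick genes with little RNA in the lower location.

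Few genes of other skin cell types were called. Of 23 hair follicle genes found, 6 passed the filter on low counts and 4 of these were higher at the edge: DSC2, HOXC13, SOX9 and DLX3, of which SOX9 and DLX3 also act outside the hair shaft. SOX9 had 7.79 to 15.6 CPM at the edge, below the 57.1 to 85.3 CPM of day 0 skin. The summed list ran from 256 to 1040 CPM at the edge, from 55.0 to 126 CPM in the center and from 403 to 21308 CPM in day 0 skin. The edge sum lay mostly in the members that passed the filter. The hair keratins KRT27 and KRT71 did not pass it, with edge medians of 1.21 and 0.315 CPM and day 0 medians of 4729 and 4257 CPM. Of the untested members KRT84 and KRT34 were highest at the edge, at 122 and 94.7 CPM in wound 1. Of melanocyte, adipocyte and erythrocyte genes 0 of 5, 0 of 10 and 0 of 3 tested were called by edgeR. At an unadjusted p below 0.05 there were 1, 1 and 0 of them, and DESeq2 called 2 adipocyte genes, 1 in each direction, and none of the others. By edgeR 1 melanocyte gene was called in the center without wound 3, 2 adipocyte genes were called in the center without wound 4 and 1 at the edge without wound 5. Leaving out wound 5 also gave 1 hair follicle call in the center. Of 8 Schwann cell genes 1 was called, ERBB3, an EGF receptor family member that keratinocytes also express, and it was higher at the edge. Of 18 genes of resting dermis 1, WIF1, was higher at the edge, and it was called neither without wound 1, 2, 3, 5 or 6 nor with the animal as the block. The rest of that list leaned to the center, with 6 of 18 fold changes positive and a median of -0.33. By edgeR with the wound as a block 0 were called there, with 3 called without wound 4 and 5 by DESeq2.

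Skeletal muscle genes set the center of wound 5 apart. The summed list was 97767 CPM in that sample and 274 to 802 CPM in the other 11. ACTA1, the skeletal actin, had 22713 CPM there, CKM, the muscle creatine kinase, 11256 CPM, and ENO3, the muscle enolase, 7392 CPM, while the edge sample of the same wound had 0 CPM of ACTA1. The muscle regeneration factors MYOD1 and MYOG stood at 18.7 and 10.7 CPM. Of 31 skeletal muscle genes found, 13 passed the filter on low counts, and ACTA1 and CKM were not among them. Of 12 regeneration genes found, 0 passed it. Of the 13 muscle genes tested, 0 were called and 0 had an unadjusted p below 0.05 with the wound as a block in edgeR. DESeq2 with the same block called 0. Without pairing edgeR called 6 of them higher in the center, and without wound 5 it called 1, at the edge. The list's median was -0.70 with all wounds and 0.13 without wound 5. With both muscle lists removed from the table, 1462 genes were higher at the edge and 672 in the center. Without wound 5 the counts were 1560 (11.0%) and 729 (5.12%).

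Other wounds of the same 3 animals were sampled at day 4 and day 9, and the edge to center difference was fitted for the 3 days together over 36 samples. Genes higher at the edge numbered 2527 on day 4 (17.8%), 1984 on day 6 (14%) and 2642 on day 9 (18.6%) of the same 14199 genes, and genes higher in the center 2675 (18.8%), 1678 (11.8%) and 3126 (22%). The suprabasal list had medians of 7.65, 6.73 and 7.53 on these days and the endothelial list of -0.66, -0.64 and -0.76. The neutrophil list had medians of -0.96, -0.38 and -2.37, with 4, 1 and 11 of 12 genes higher in the center, and the macrophage list of -0.83, -0.60 and -1.50, with 10, 5 and 15 of 22. Differences between days were not tested for lists.

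Gene by gene, the difference between the locations on day 6 was unlike that of day 4 for 0 of 15649 genes by edgeR (1059, or 6.77%, had an unadjusted p below 0.05, and DESeq2 called 17). Against day 9 it was unlike for 2 genes (0.0128%; 2235, or 14.3%, at an unadjusted p below 0.05), while DESeq2 called 561. ICAM1, an adhesion molecule that leukocytes bind, had a log2 fold change of -0.43 on day 6 and -1.96 on day 9 in the fit of the 3 days, a difference of 1.53 ± 0.24 (adjusted p = 0.0438). CD46, a complement regulator, had -0.05 and -0.82 in that fit, a difference of 0.77 ± 0.12 (adjusted p = 0.0438). Both lost the call without wound 1, 2, 3, 5 or 6 of day 6, with adjusted p-values of 0.0615 to 0.150, and without wound 4 there were 477 such genes. The edge to center difference was also compared between wounds K and wounds B of day 6, 3 of each, and 0 genes passed by edgeR or by DESeq2 (222, or 1.56%, at an unadjusted p below 0.05 by edgeR).

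**Figure D5:**
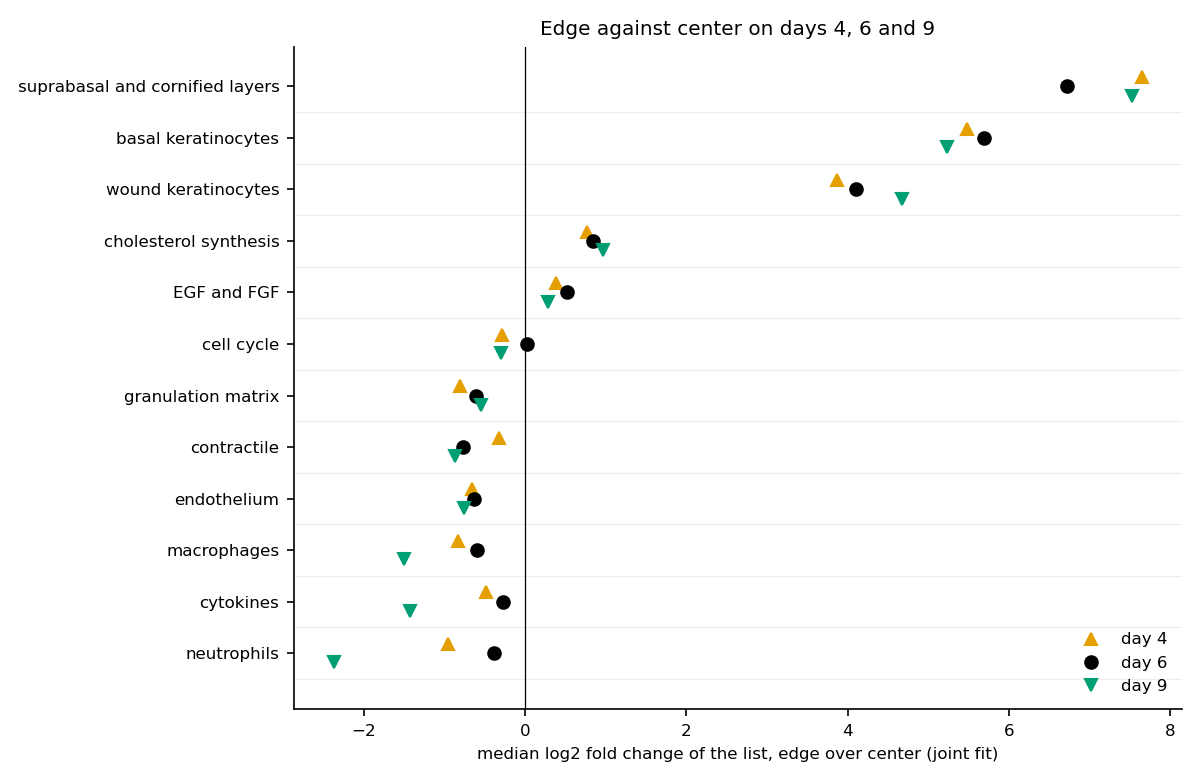
Median log2 fold change of 12 lists, edge over center, on days 4, 6 and 9 in the joint fit. The 3 keratinocyte lists have medians between 3.87 and 7.65 on all 3 days, and the neutrophil, macrophage and cytokine medians are closest to 0 on day 6 and farthest on day 9.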

How the data were processed

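Wounds were biopsied at 3.5 mm and poly-A RNA was sequenced. The deposited gene counts are whole reads per gene, and the FPKM values were also made by the authors' sequencing provider. The aligner, counter and genome build are not given in the sources used here. Counts of the 12 day 6 samples were normalised by TMM and tested with edgeR 4.0.16 (R 4.3.3, limma 3.58.1), with the wound as a block, on genes passing filterByExpr (minimum count 10, minimum total 15), at an adjusted p of 0.05. FPKM was used only to compare levels between genes and, for the lymphatic list, summed levels between locations. The labels give both samples of a wound the same animal and wound letter, which is where the pairing comes from, and deviations of the paired samples correlated at -0.014 to 0.348. In 5 of 6 wounds a sample of another wound correlated more closely, at up to 0.513. Differences between days and between wounds K and B were interaction terms, and the fit of the 3 days together was added after the data were seen. DESeq2 1.42.0 was an alternative. On simulated counts with 200 changed genes and the day 6 design, edgeR found 61% of 2-fold and 97% of 4-fold changes, with 4.82% of calls false. DESeq2 found 90% and 98%, with 23.0% false. The simulated counts had no wound or animal effect, balanced directions and a spread estimated by edgeR, so these rates need not hold for the day 6 data.

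Total counts ran from 14252564 to 18380786, and depth limits mostly genes near 3 counts, which is 0.163 to 0.210 CPM. Intervals of count ratios are exact and cover counting error only. Genes took the symbol of the table or of the protein match in its description, and of 681 list genes 619 were found, while 8 were dropped because both names disagreed. The named genes were the 12 largest changes in each direction (adjusted p below 0.05, log2 fold change of at least 1, the same sign in 6 of 6 wounds, mean CPM of at least 5, muscle lists left out), the 2 most abundant and the 2 with the lowest adjusted p of each list, IL1B and KRT10, the genes past the threshold between days and the 3 highest muscle genes. Other list genes named in the text were chosen after their values were seen. Members and lists were chosen with earlier results of these data known. Whether the counting used strand is not given in the sources used here, so reads of overlapping genes cannot be told apart, and near-identical keratin and S100 genes may share reads. The alternatives were other scalings, filters and blocks, DESeq2, all 150 samples in one fit, muscle genes removed and each wound left out. Results for some list genes are not reported here.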

Additional observations from a re-analysis of the deposited data

Results flagged for a closer look

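In 15 of 110 groups of 6 samples that were examined, the highest or lowest sample stood apart by Dixon's ratio (its gap to the nearest sample over the whole range, on log2(CPM + 1)), where chance gives about 1 in 20. In 8 of the 15 the sample was the center of wound 5. It was highest for the summed skeletal muscle list (0.928), the muscle regeneration list (0.85), the contractile list (0.709) and the hypoxia list (0.69), and lowest for the cell cycle list (0.636), DRD1 (0.668), MSC (0.634) and CD46 (0.698). That sample had 9.79% of its counts in muscle genes, and the part of muscle RNA in the other values was not tested. It was known for its high ACTA1 before the groups were examined. Its flag for the skeletal muscle list, which holds ACTA1, was therefore fixed in advance. The 15 and the 8 include that flag. The edge sample of wound 5 was highest for PRLR (0.635) and lowest for ICAM1 (0.662), and that of wound 6 lowest for FOXN1 (0.756) and TMEM125 (0.763). In the center, wound 2 was highest for the basement membrane collagen list (0.723), wound 3 for an entry matched to FLG2 (0.806) and wound 4 for IL1B (0.635).

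The edge to center difference of ICAM1 was 1.53 higher on day 6 than on day 9, and that of CD46 0.77 higher, on the log2 scale and by a test of the difference (edgeR adjusted p = 0.0438 for both). Its adjusted p was 0.0843 for both without TMM, and without pairing 0.150 for ICAM1 and 0.115 for CD46.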

How the results depend on the processing

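For edge against center on day 6 the 2107 calls became 4176 with all 150 samples in one fit (2588 edge, 1588 center) and 3924 in the fit of days 4, 6 and 9 (2232 and 1692), and DESeq2 gave 1193 center calls. Without each replicate in turn the totals ran from 1365 to 2289, the edge from 1125 to 1560 and the center from 240 to 729. Without the replicate block there were 1467 edge and 556 center calls, with the animal as block 1399 and 435, with wounds summed per animal 1426 and 635, without TMM 1456 and 645, with RLE factors 1445 and 689 and without a filter 1491 and 594. Of 201 called list or named genes, 40 were lost without the replicate block, 37 with the animal as block, 7 with all samples in one fit, 4 without TMM and 13 to 46 without any one wound, the most without wound 3, and none reversed. The difference between days 6 and 4 gave 0 calls, and 17 with DESeq2. That between days 6 and 9 gave 2 calls, 0 without TMM or the replicate block, 9 without a filter, 561 with DESeq2 and 0 to 477 without a day 6 replicate. Wounds K against B gave 0 calls, and 8 without a filter. The cause of these changes was not tested. Totals of 14252564 to 18380786 counts limit mostly genes near 3 counts.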

Other observations

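Outside the lists, some further genes past the threshold on day 6 are named here after their values were seen, each in the same direction in 6 of 6 wounds. Higher in the center were the matrix cross-linker TGM2, with medians of 84.98 CPM at the edge and 226.6 CPM in the center (log2 fold change -1.65 ± 0.20, edgeR adjusted p = 0.000458), and the binding protein of insulin-like growth factors IGFBP4, with medians of 903.7 and 2078 CPM (-1.12 ± 0.22, adjusted p = 0.00901). EDNRB, a receptor to which EDN3 binds, was at -1.19 ± 0.19 (adjusted p = 0.00285), while EDNRA, the other endothelin receptor, did not pass at -0.48 ± 0.17 (adjusted p = 0.0942). ROR2, a receptor to which WNT5A binds, was at -1.01 ± 0.18 (adjusted p = 0.00546). The T-box factors TBX2 and TBX3 were at -1.54 ± 0.25 and -1.22 ± 0.20, and the arterial genes GJA5, a gap junction protein, and HEY2, a Notch target, at -1.01 ± 0.14 and -1.25 ± 0.18.

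Higher at the edge were NDUFA4L2, a mitochondrial protein induced under hypoxia, with medians of 217.3 CPM at the edge and 16.0 CPM in the center (3.64 ± 0.21), the water channel AQP3 of keratinocytes with 927.3 and 46.2 CPM (4.40 ± 0.25), and HR, a nuclear corepressor of hair follicles, with 235.3 and 9.88 CPM (4.35 ± 0.30). FASN, the fatty acid synthase, was higher by 1.09 ± 0.14 (adjusted p = 0.000937).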
